A study of Mus musculus with 18 samples.

Results

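Astrocytes grown from DNGR-1-traced spinal cord cells were compared with astrocytes grown from hippocampal neural stem cells (NSCs). The comparison used 9 of the 18 RNA-seq libraries, 3 from each of 3 cultured lines, and the other 9 libraries, of the NSCs before differentiation, served only to show which differences were already there. Of 27997 genes in the table of values, 15025 had a log2 value of at least 3.322, that is 10 before the logarithm, in 3 or more of the 9 astrocyte libraries and were tested. A gene was taken as differing between origins when it differed from the hippocampal line in the same direction in both traced lines, each at an adjusted p under 0.05, and 6344 genes did so.

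DNGR-1, the product of Clec9a, is a receptor best known from dendritic cells, and Clec9aCre marks cells with a history of its expression. The study used it to follow ependymal cells, the ciliated cells that line the ventricles and the central canal. One traced line carried RosaLSLtdTomato (genotype DNGR-1 +/- Tom+/-) and the other RosaLSLEYFP (DNGR-1 +/- EYFP+/-), and both were started from labelled cells of spinal cord neurospheres. The hippocampal line was DNGR-1+/+ and came from mice with Glast-Cre, a floxed Huwe1 allele and Rosa LSL-EYFP, in which Glast (Slc1a3) drives Cre in radial glia-like stem cells. Whether Cre had been induced in that line is not given in the sources used here. In all 3 lines NSCs were turned into astrocytes with 20 ng/ml of BMP4, a bone morphogenetic protein that stops division of NSCs and drives them towards astrocytes, and were harvested on day 6. NSCs were harvested on day 4. The 3 replicates of a line were passages 10 to 12 of that line, so p-values measure the spread between passages of a culture and not between animals. The hippocampus was thus represented by 1 line and the spinal cord by 2, and tissue of origin cannot be told apart from the Cre driver or the alleles. Both comparisons used the same 3 hippocampal libraries.

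Cells of the neural tube keep a record of where they arose. Hox genes, which lie in 4 clusters and encode homeodomain factors, are switched on in the hindbrain and spinal cord in an order that follows their position in the cluster, and stay silent in the forebrain. Forebrain progenitors instead use factors such as Emx2, Lhx2 and Otx1. Astrocytes also differ in state: after injury or on contact with cytokines they raise Gfap, vimentin and a set of secreted and immune genes, and type I or II interferon switches on antiviral and antigen presentation genes through Stat2, Irf9 and related factors.

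The values are log2 values on a scale relative to library size, as the authors deposited them. Weakly expressed genes are drawn towards their mean over all libraries on this scale: Ddx3y, a gene of the Y chromosome, lay at 4.33 in all 3 tdTomato libraries, whereas the line expressed Xist at 14.02 to 14.99. A value below about 5 may therefore stand for few or no reads, differences against such a value are understated, and levels were not compared between genes. The depth behind each value is unknown. Differences are traced minus hippocampal on this log2 scale, with the standard error (SE) of the fit to 3 libraries per line, and the nearer difference of a gene is the smaller of its differences from the 2 traced lines. The linear sum of a library's values was 22 to 23.2 M in astrocytes, and the largest median difference between replicates of a line was 0.118 to 0.124. Xist lay at 14.02 to 14.99 in the tdTomato line and at 5.07 to 5.59 in the others, and genes of the Y chromosome at 3.98 to 5.29 and 8.43 to 10.16, so the tdTomato line differed in sex from both other lines. Of the genes tested on the X chromosome, 217 of 513 (42.3%) differed between origins, as did 42.2% of all genes. Huwe1 lay at 12.97 to 13.16 in all lines and did not pass the test, and Clec9a is not analysed here.

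Of the 15025 genes, 2915 (19.4%) were higher in both traced lines and 3429 (22.8%) lower. The balance turned under other scalings, with 3331 higher and 3065 lower after median centring and 3415 and 3067 after quantile normalization. The differences were mostly small, with a median size of 0.46 on the log2 scale among the 6344 genes. A difference of at least 1 from both traced lines was found for 527 higher genes (3.51%) and 821 lower ones (5.46%), and of at least 3 for 54 and 145. Taken on its own, the tdTomato line differed from the hippocampal line in 8351 genes (55.6%), 3849 higher and 4502 lower, and the EYFP line in 7336 (48.8%), 3415 higher and 3921 lower. A further 75 genes passed both tests with opposite signs. The traced lines differed from each other in 1771 genes (11.8%). Of the 1348 genes that differed by at least 1, 1341 had all 6 traced values on 1 side of the 3 hippocampal values. That follows largely from their choice by size and test on the same values. The filter itself was met by a narrow margin by Myo1a, Gm11532 and Speer4d, each with a third-highest value of 3.323, and missed by Rmi2 (3.321) and Gm14018 (3.319).

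Among genes higher in both traced lines, 9 of the 12 with the largest differences were Hox genes. Pi15, which encodes a secreted peptidase inhibitor, led the list (chromosome 1, 17601901 to 17630939, GRCm38). Its log2 values were 11.49, 11.87 and 11.85 in the tdTomato line, 11.55, 12.03 and 11.50 in the EYFP line and 6.30, 6.39 and 6.21 in the hippocampal line. The differences from the hippocampal line (± SE) were 5.44 ± 0.14 for tdTomato and 5.39 ± 0.14 for EYFP, adjusted p = 2.3e-10 and 2.8e-10. Nkx6-1, a homeodomain factor of the ventral spinal cord (chromosome 5, 101658139 to 101664996), lay at 9.69, 9.80 and 9.74 in the tdTomato line, 8.91, 8.82 and 8.83 in the EYFP line and 4.56, 4.32 and 4.27 in the hippocampal line. The differences were 5.36 ± 0.09 for tdTomato and 4.47 ± 0.09 for EYFP, adjusted p = 1.3e-11 and 6.8e-11, and the EYFP values lay between those of the other lines. Tceal3, a member of a family of small transcription elongation factor-like proteins on the X chromosome, had values of 9.34, 9.17 and 9.24 in the tdTomato line, 7.83, 7.91 and 8.01 in the EYFP line and 3.80, 3.80 and 3.57 in the hippocampal line. The EYFP line again lay between the others, and the differences were 5.53 ± 0.11 for tdTomato and 4.20 ± 0.11 for EYFP, adjusted p = 2.7e-11 and 2.8e-10. In none of the 12 genes did a traced value overlap a hippocampal one, which follows largely from their choice by size.

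In the other direction the largest difference was that of Serpina3m, a secreted serine protease inhibitor of a cluster on chromosome 12 (104338486 to 104394257). Its values were 1.77, 0.99 and 1.77 in the tdTomato line, 0.89, 0.98 and 1.02 in the EYFP line and 10.19, 9.13 and 8.95 in the hippocampal line. The differences were -7.91 ± 0.33 for tdTomato and -8.46 ± 0.33 for EYFP, adjusted p = 9.7e-09 and 7.2e-09. Galnt9 encodes an enzyme that starts O-linked glycosylation and had values of 1.39, 0.94 and 2.43 in the tdTomato line, 1.57, 0.93 and 0.97 in the EYFP line and 10.30, 8.99 and 8.21 in the hippocampal line. The replicates of the hippocampal line spread over more than 2 log2 units in that gene, and all 3 lay far above the traced lines (-7.58 ± 0.50 for tdTomato and -8.01 ± 0.50 for EYFP, adjusted p = 3e-07 and 2.5e-07). Aspg, an asparaginase listed among the markers of reactive astrocytes, lay at 1.87, 1.86 and 2.35 in the tdTomato line, 1.41, 2.32 and 1.57 in the EYFP line and 9.46, 9.16 and 9.52 in the hippocampal line, again with no overlap. The differences were -7.36 ± 0.26 for tdTomato and -7.62 ± 0.26 for EYFP, adjusted p = 2.7e-09 and 2.2e-09. Oasl2, a relative of the oligoadenylate synthetases that interferon switches on (chromosome 5, 114896936 to 114912234), was measured at 4.18, 3.88 and 4.11 in the tdTomato line, 3.53, 4.14 and 3.84 in the EYFP line and 11.50, 10.38 and 10.24 in the hippocampal line. The differences were -6.65 ± 0.29 for tdTomato and -6.87 ± 0.29 for EYFP, adjusted p = 1.3e-08 and 1.3e-08. Mx1, an antiviral GTPase, lay at 0.97, 2.18 and 0.97 in the tdTomato line, 0.86, 1.95 and 1.41 in the EYFP line and 7.69, 6.61 and 6.80 in the hippocampal line (-5.66 ± 0.42 for tdTomato and -5.63 ± 0.42 for EYFP, adjusted p = 7e-07 and 9.1e-07).

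The other lower genes of the leading 12 covered a range of functions. Ifi202b, an interferon-inducible DNA-binding protein, was at 8.59, 9.61 and 9.04 in the hippocampal line and lower by at least 7.12 in each traced line. The receptor Mrgprf was at 10.14, 8.90 and 9.24 (nearer difference -6.97), and Cnmd, a matrix protein of cartilage that restrains vessel growth, at 8.31, 7.90 and 8.42 (-6.87). Periplakin (Ppl), which links intermediate filaments to junctions, was at 11.35, 10.39 and 9.95 (-6.43). Irs4, an adaptor of insulin and IGF receptors, was at 10.49, 9.97 and 10.20 (-6.25). The lens crystallin Crygs was at 8.47, 6.89 and 7.02 (-6.21). In each of the lower genes named here, every hippocampal value lay above all 6 traced values, which follows largely from their choice by size.

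**Figure D1:**
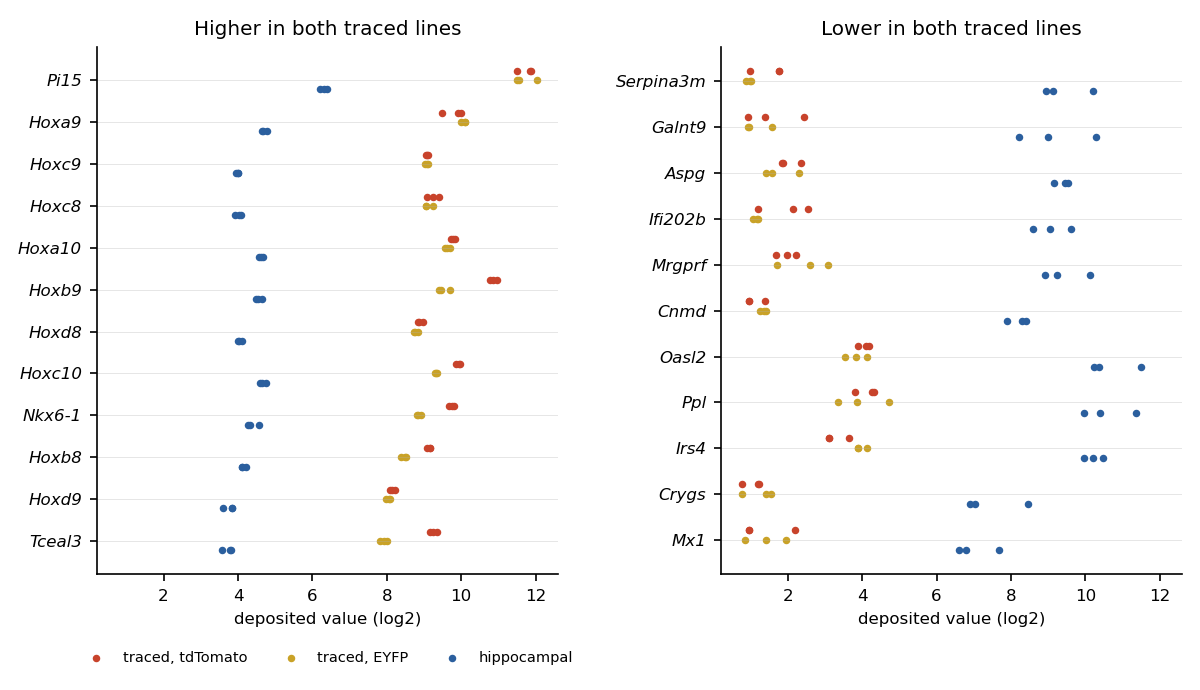
Log2 values of 12 genes higher and 11 genes lower in both traced lines, from those with the largest difference from the nearer traced line, 1 dot per library (3 each for the tdTomato, EYFP and hippocampal astrocytes) and 1 line of dots per gene. In every gene shown, all 6 traced values lie on the same side of the hippocampal ones, with the widest spread among hippocampal replicates in Galnt9, Crygs and Ppl.

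Beyond the leading 12, genes picked after their values were seen included receptors and transporters. Kit, the receptor of stem cell factor, was at 12.52, 12.29 and 12.33 in the tdTomato line, 12.59, 12.66 and 12.57 in the EYFP line and 9.15, 8.86 and 9.03 in the hippocampal line, with both traced lines above the hippocampal line (3.36 ± 0.08 for tdTomato and 3.59 ± 0.08 for EYFP, adjusted p = 1.1e-10 and 8.2e-11). In NSCs the means of Kit were 7.94, 7.64 and 8.08 in the tdTomato, EYFP and hippocampal lines. Slc38a1, which carries glutamine, was at 15.46, 15.41 and 15.58 in the tdTomato line, 15.60, 15.62 and 15.75 in the EYFP line and 12.26, 12.01 and 12.13 in the hippocampal line (3.35 ± 0.07 for tdTomato and 3.52 ± 0.07 for EYFP, adjusted p = 7.4e-11 and 7e-11). The exporter Abcg2 (nearer difference 3.55), the adenylyl cyclase Adcy2 (3.24), Fgf14 (3.87) and the angiotensin-cleaving peptidase Enpep (3.90) were also higher. On the lower side, vitronectin (Vtn) was at 3.19, 2.78 and 1.56 in the tdTomato line, 3.73, 4.02 and 2.82 in the EYFP line and 8.79, 8.07 and 8.99 in the hippocampal line (-6.10 ± 0.43 for tdTomato and -5.09 ± 0.43 for EYFP, adjusted p = 4.8e-07 and 2.4e-06). Cd14, a coreceptor for lipopolysaccharide, was at 8.41, 8.20 and 8.04 in the hippocampal line (-4.91).

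The Hox genes separated the origins across all 4 clusters. Of 36 Hox genes in the table, 32 passed the filter, 25 were higher in both traced lines (78.12%, against 19.4% of all genes), 24 of them by at least 1, and 2 were lower (1 without tdTomato replicate 3). Several members passed only because the traced lines expressed them. The medians of the 32 were 4.19 for the tdTomato and 3.39 for the EYFP line. Of the 18 that reached 3.32 in the mean of every line, 16 were higher and 2 lower. This level lies below about 5, under which a value may stand for few or no reads. Here and in the other lists, reaching it thus does not show expression in every line. The highest hippocampal means of the Hoxb, Hoxc and Hoxd clusters were 4.56, 4.66 and 4.04. A mean of at least 100 on the linear scale (6.64 in log2) was reached by 24 Hox genes in the tdTomato line, 20 in the EYFP line and 5 in the hippocampal line. All 5 of the latter lay in the Hoxa cluster, among them Hoxa5 and Hoxa7.

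Within the middle of the clusters both traced lines carried nearly the same profile. Hoxa9, on chromosome 6, lay at 9.48, 9.92 and 10.00 in the tdTomato line, 10.00, 10.10 and 10.10 in the EYFP line and 4.79, 4.68 and 4.64 in the hippocampal line (5.10 ± 0.12 for tdTomato and 5.37 ± 0.12 for EYFP, adjusted p = 1.4e-10 and 1.1e-10). Hoxa10 lay at 9.77, 9.73 and 9.84 in the tdTomato line, 9.71, 9.55 and 9.63 in the EYFP line and 4.56, 4.68 and 4.63 in the hippocampal line (5.16 ± 0.07 for tdTomato and 5.01 ± 0.07 for EYFP, adjusted p = 4.9e-12 and 1.1e-11). Hoxc9, on chromosome 15, lay at 9.10, 9.04 and 9.09 in the tdTomato line, 9.09, 9.02 and 9.11 in the EYFP line and 3.99, 4.00 and 3.94 in the hippocampal line (5.10 ± 0.08 for tdTomato and 5.10 ± 0.08 for EYFP, adjusted p = 4.9e-12 and 1.1e-11), with all 6 traced values between 9.02 and 9.11. Hoxc8 (5.10 from the nearer line), Hoxd8 (4.73) and Hoxd9 (4.28) followed. The traced lines were less alike in the Hoxb cluster. Hoxb9 was at 10.86, 10.96 and 10.76 in the tdTomato line, 9.45, 9.70 and 9.40 in the EYFP line and 4.53, 4.66 and 4.49 in the hippocampal line, and the tdTomato line exceeded the EYFP line by 1.34 (adjusted p = 6.5e-06). Hoxb8 (0.66, adjusted p = 0.00043) and Hoxb6 (1.15, adjusted p = 0.00022) showed the same order.

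At the 5' ends of the clusters, which mark the lumbosacral cord in the embryo, the traced lines parted. Hoxc11 was at 7.81, 7.57 and 7.47 in the tdTomato line, 1.78, 2.43 and 2.48 in the EYFP line and 1.94, 1.95 and 1.87 in the hippocampal line, so that the EYFP and hippocampal values overlapped while the tdTomato line exceeded the EYFP line by 5.39 (adjusted p = 1e-07). Hoxc12 (4.84, adjusted p = 1.2e-07) and Hoxc13 (5.16, adjusted p = 1.2e-07) also had a higher value in the tdTomato line than in the EYFP line. Hoxa11 and Hoxa13 had means of 4.13 and 4.35 in the tdTomato line against 1.10 and 1.09 in the EYFP line and 1.02 and 0.78 in the hippocampal line. Because none of these 5 genes passed the test in both traced lines, they are not counted among the 6344 genes.

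Hoxa4 was lower in the traced lines, against the direction of most members. Hoxa4 had values of 5.71, 6.16 and 6.27 in the tdTomato line, 6.17, 6.20 and 5.94 in the EYFP line and 7.17, 7.07 and 7.19 in the hippocampal line, with no overlap (-1.09 ± 0.15 for tdTomato and -1.04 ± 0.15 for EYFP, adjusted p = 9.7e-05 and 0.00017). Hoxa2 was at 8.74, 8.83 and 8.93 in the tdTomato line, 9.25, 9.19 and 9.02 in the EYFP line and 5.19, 5.74 and 5.66 in the hippocampal line (3.30 ± 0.13 for tdTomato and 3.63 ± 0.13 for EYFP, adjusted p = 8.4e-09 and 5.3e-09), and Hoxa3 differed by 0.71. Hoxa5 was at 9.92, 10.10 and 10.07 in the tdTomato line, 10.29, 10.30 and 10.20 in the EYFP line and 8.39, 8.50 and 8.65 in the hippocampal line, so that a gene well expressed in the hippocampal line was still higher in the traced lines (1.52 ± 0.07 for tdTomato and 1.75 ± 0.07 for EYFP, adjusted p = 3.1e-08 and 1.3e-08). Hoxa7 showed the same, with a nearer difference of 1.85. Hoxd3 and Hoxd4 share 59% and 43.9% of their 75-base stretches with transcripts of other genes, so their values are uncertain.

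**Figure D2:**
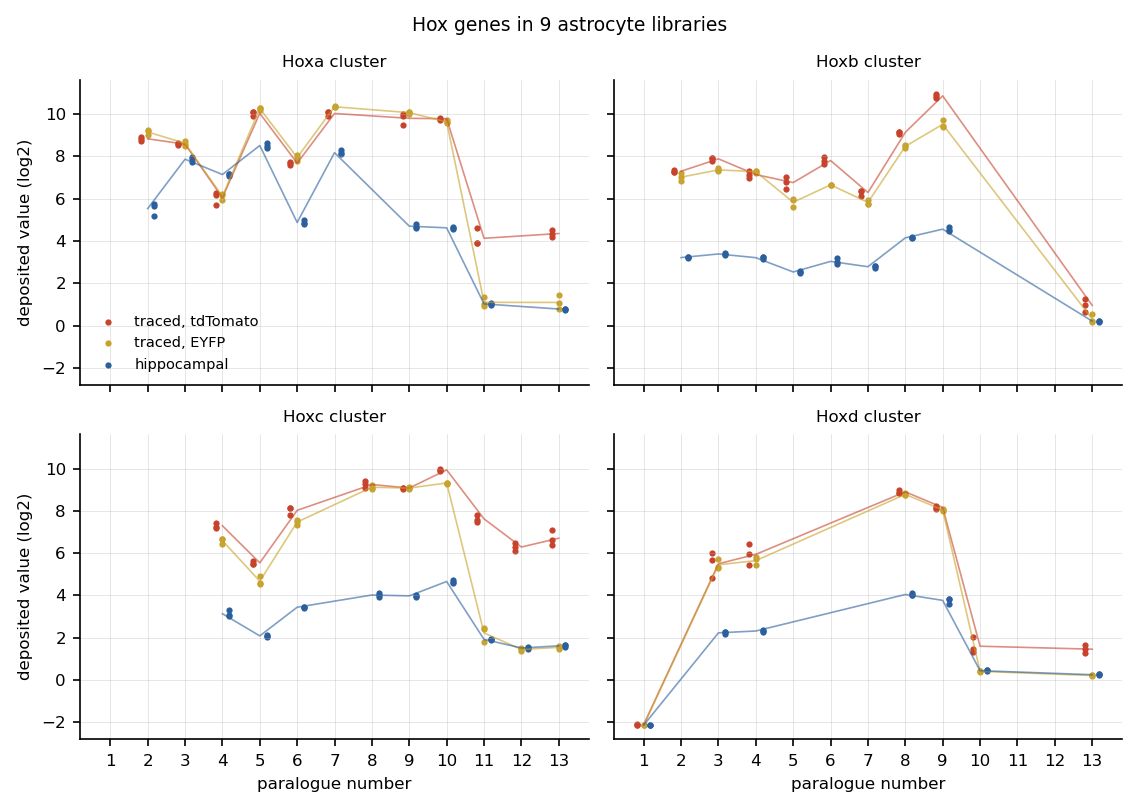
Log2 values of the Hox genes by paralogue number in the 4 clusters, 1 dot per astrocyte library and a line through the mean of each culture. The hippocampal line lay below both traced lines at the middle numbers of every cluster and above them at Hoxa4, and at Hoxc11 to Hoxc13 the tdTomato line lay above the other lines.

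Most forebrain factors past the filter were lower in both traced lines, and most dorsoventral patterning factors were higher. Of 18 forebrain transcription factors past the filter, 10 were lower (55.56%, against 22.8% of all genes) and 2 higher, with a median of -0.56 for each traced line, and of the 15 that reached 3.32 in every line 8 were lower. Otx1 was at 5.79, 5.70 and 5.72 in the tdTomato line, 5.73, 5.82 and 6.13 in the EYFP line and 8.47, 8.48 and 8.41 in the hippocampal line (-2.72 ± 0.12 for tdTomato and -2.56 ± 0.12 for EYFP, adjusted p = 1.2e-08 and 2.4e-08), with no overlap. Nr2e1 (-2.06), Dmrta2 (-1.83), Lhx2 (-1.23) and Emx2 (-0.83) were lower too. Prox1, a factor of dentate granule neurons, was slightly higher in the traced lines (0.68). Of 14 factors that pattern the dorsoventral axis, 9 were higher (19.4% of all genes) and 1 lower, and of the 12 that reached 3.32 in every line 9 were higher and none lower. The roof plate factor Lmx1a was the lower one, at 3.45, 3.01 and 2.38 in the tdTomato line, 1.83, 1.00 and 1.44 in the EYFP line and 6.89, 5.76 and 5.85 in the hippocampal line (-3.22 ± 0.37 for tdTomato and -4.74 ± 0.37 for EYFP, adjusted p = 2.4e-05 and 1.4e-06). Beside Nkx6-1, the higher ones included Irx5 (1.26), Msx1 (1.13), Irx3 (0.89), Pax6 (0.53), Dbx2 (0.43), Olig1 (1.07) and Olig2 (0.51).

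Zic factors, zinc finger proteins of the dorsal midline and hindbrain, were lower in 4 of 5 cases, against 22.8% of all genes, and in 3 of the 4 that reached 3.32 in every line. Zic1 divided all 3 lines, with values of 7.24, 7.12 and 7.37 in the tdTomato line, 4.33, 4.69 and 4.29 in the EYFP line and 10.08, 9.96 and 10.06 in the hippocampal line. The differences from the hippocampal line were -2.79 ± 0.12 for tdTomato and -5.60 ± 0.12 for EYFP, adjusted p = 1.2e-08 and 8.2e-11, and the tdTomato line exceeded the EYFP line by 2.81 (adjusted p = 1.1e-07). Hox cofactors of the TALE class split, with 4 of 9 higher (19.4% of all genes), among them Pbx3 (1.38) and Meis2 (1.10), and 2 lower (22.22%, close to all genes), or 1 under a stricter filter of 100 on the linear scale. The NFI factors, which promote astrocyte differentiation, moved little, with 3 of 4 higher and Nfia lower (-0.39).

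All 3 lines expressed the defining genes of astrocytes, but at different levels. Of 21 astrocyte markers past the filter, 12 were lower in both traced lines (57.14%, against 22.8% of all genes), 1 was higher (19.4% of all genes) and 8 did not meet the rule, with medians of -0.61 for the tdTomato and -0.43 for the EYFP line. Every one of the 21 reached 3.32 in each line. Gfap, the astrocyte intermediate filament, was at 15.22, 14.69 and 15.53 in the tdTomato line, 15.85, 15.25 and 15.92 in the EYFP line and 16.37, 16.17 and 16.66 in the hippocampal line. Its differences were -1.25 ± 0.22 for tdTomato and -0.73 ± 0.22 for EYFP, adjusted p = 0.00061 and 0.0187, and the call was lost without EYFP replicate 2, without hippocampal replicate 3 or with no filter on low values. Aldh1l1, a folate enzyme used as an astrocyte marker (chromosome 6, 90486427 to 90600203), was at 7.07, 6.73 and 7.09 in the tdTomato line, 7.06, 6.87 and 7.05 in the EYFP line and 10.68, 10.14 and 10.01 in the hippocampal line (-3.31 ± 0.16 for tdTomato and -3.28 ± 0.16 for EYFP, adjusted p = 3e-08 and 4.1e-08). This difference was already there in NSCs, at -3.44. Clusterin (Clu), a secreted chaperone, was at 12.64, 12.29 and 12.49 in the tdTomato line, 13.37, 13.26 and 13.42 in the EYFP line and 15.72, 15.77 and 15.74 in the hippocampal line (-3.27 ± 0.08 for tdTomato and -2.39 ± 0.08 for EYFP, adjusted p = 1.5e-10 and 1.9e-09). Apoe, the lipid carrier, was lower by at least 1.34. The gap junction protein Gja1 (-1.69), the GABA transporter Slc6a11 (-1.53), Slc1a3 (-0.52) and Sox9 (-0.49) were lower as well.

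The main glutamate transporter of astrocytes went the other way. Slc1a2 was at 15.07, 15.06 and 15.08 in the tdTomato line, 14.70, 14.79 and 14.89 in the EYFP line and 13.89, 14.09 and 14.01 in the hippocampal line and higher in every traced library than in any hippocampal one (1.07 ± 0.07 for tdTomato and 0.80 ± 0.07 for EYFP, adjusted p = 1.9e-07 and 2.4e-06). Aqp4, the water channel of astrocyte endfeet, was at 12.08, 11.68 and 11.98 in the tdTomato line, 13.75, 13.63 and 13.84 in the EYFP line and 13.43, 13.15 and 13.10 in the hippocampal line. It was thus lower than the hippocampal line in the tdTomato line and higher in the EYFP line (-1.32 ± 0.11 for tdTomato and 0.51 ± 0.11 for EYFP, adjusted p = 1.7e-06 and 0.00242), and the traced lines differed by -1.83 (adjusted p = 2.2e-06). The log2 of the summed level of all markers was 18.41 to 18.77 in the traced and 19.28 to 19.35 in the hippocampal libraries. Aldoc, Glul, Slc4a4, Ndrg2, Kcnj10, S100b and Fgfr3 did not meet the rule either. In these bulk libraries, fewer cells that express a gene and less RNA of it per cell cannot be told apart.

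Most genes on 3 lists of reactive astrocyte markers were lower in the traced lines. These lists come from injury and inflammation models in the mouse brain. Of 13 pan-reactive genes, 12 were lower (92.31%, against 22.8% of all genes) and none was higher, with medians of -2.25 and -1.96 for the tdTomato and EYFP lines. Lipocalin 2 (Lcn2), a secreted iron-siderophore carrier, was at 4.49, 3.46 and 3.64 in the tdTomato line, 4.19, 3.60 and 3.68 in the EYFP line and 8.51, 7.44 and 7.41 in the hippocampal line (-3.92 ± 0.34 for tdTomato and -3.96 ± 0.34 for EYFP, adjusted p = 2.4e-06 and 2.7e-06). Steap4, a metalloreductase, was lower by at least 3.54, the sphingosine phosphate receptor S1pr3 by 2.95 and the small heat shock protein Hspb1 by 2.73. Serpina3n (-1.96), Cxcl10 (-2.25), Cd44 (-1.01) and vimentin (Vim, -1.40) followed. The remaining gene, the oncostatin M receptor Osmr, was at 9.11, 8.77 and 8.78 in the tdTomato line, 8.99, 8.88 and 8.70 in the EYFP line and 9.20, 8.63 and 8.87 in the hippocampal line, with all lines overlapping. Of 10 genes tied to the neurotoxic A1 state, 8 were lower, each by at least 1, with Ggta1 (-3.63), Serping1 (-3.54) and H2-D1 (-2.79) in front. Of 10 tied to the A2 state, 6 were lower and 1, Tm4sf1, was higher (0.48), a call lost without hippocampal replicate 2 or with no filter on low values. Among those that reached 3.32 in every line, 9 of 10, 6 of 8 and 4 of 7 were lower in the 3 lists. The lists overlap with the interferon and antigen presentation genes, H2-D1 being in more than 1 of them.

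Interferon-stimulated genes were mostly lower in the traced lines. Of 39 past the filter, 36 were lower in both traced lines (92.31%, against 22.8% of all genes), 31 of them by at least 1 (5.46% of all genes), and none was higher. The median difference was -2.25 for each traced line, against -0.014 (tdTomato) and -0.007 (EYFP) over all genes tested. Of the 32 that reached 3.32 in every line, 30 were lower. The 3 that did not meet the rule were Mx2, Trim25 and Herc6. Many of these genes carry in their promoters an interferon-stimulated response element, to which a complex with Stat2 and Irf9 binds. Promoters of 4 lower members show that element. Each stretch is 160 bases of the strand of the gene, 5' to 3', from RefSeq on GRCm38.p6, and the capitals mark matches to GAAANNGAAA on either strand (TTTCNNTTTC where it lies on the other strand).
Ifit1 (chr19:34640729-34640888, plus strand): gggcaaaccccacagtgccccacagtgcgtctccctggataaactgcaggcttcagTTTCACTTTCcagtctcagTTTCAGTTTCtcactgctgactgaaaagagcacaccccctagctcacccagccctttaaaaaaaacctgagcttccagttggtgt
Bst2 (chr8:71537473-71537632, minus strand): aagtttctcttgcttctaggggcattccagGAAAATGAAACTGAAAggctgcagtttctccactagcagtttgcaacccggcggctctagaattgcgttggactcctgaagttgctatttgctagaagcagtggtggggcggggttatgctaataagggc
Isg15 (chr4:156200819-156200978, minus strand): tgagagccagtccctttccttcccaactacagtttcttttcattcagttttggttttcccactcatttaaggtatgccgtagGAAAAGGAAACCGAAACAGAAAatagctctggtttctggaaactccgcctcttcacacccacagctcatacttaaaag
Ifit3 (chr19:34583369-34583528, plus strand): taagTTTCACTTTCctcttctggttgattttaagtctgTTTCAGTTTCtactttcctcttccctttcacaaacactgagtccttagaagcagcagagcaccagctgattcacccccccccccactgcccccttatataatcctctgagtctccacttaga

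In the promoter of Ifit1 there were 2 matches, starting 104 and 85 bases before the annotated start of the gene. The 4 promoters were chosen among lower members that held a match. They are those with the largest differences whose matches all lay in the stretch shown. Oasl2, which was lower by more, had no match or no promoter available. Bst2 held 2 overlapping matches, at 130 and 124 bases, and Isg15 a run of 3 overlapping ones from 78 to 66 bases. Ifit3 held 2, at 156 and 122 bases. Within 250 bases before the start, the motif lay in 13 of the 27 lower interferon-stimulated genes that had a promoter in the tables (48.1%), out of 36 lower. It was present in 821 of 27025 promoters in all (3.04%) and in 266 of 10755 promoters of genes past the filter (2.47%). Among other genes lower by at least 1 it was found in 27 of 515 (5.24%), and among genes higher by at least 1 in 6 of 337 (1.78%). A match is a description of letters in a window and does not show that the element was used, and the list had been drawn up from genes known to respond to interferon.

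The members described next lay past the median of the list. Ifit1, which binds foreign RNA, was at 5.82, 6.17 and 5.86 in the tdTomato line, 4.92, 5.12 and 5.16 in the EYFP line and 11.15, 10.04 and 9.88 in the hippocampal line (-4.41 ± 0.27 for tdTomato and -5.29 ± 0.27 for EYFP, adjusted p = 1.7e-07 and 5.2e-08). Bst2, or tetherin, which holds budding virions at the membrane, was at 2.22, 2.77 and 2.44 in the tdTomato line, 1.85, 2.59 and 2.25 in the EYFP line and 6.65, 5.95 and 5.90 in the hippocampal line (-3.69 ± 0.28 for tdTomato and -3.94 ± 0.28 for EYFP, adjusted p = 9e-07 and 6.8e-07). The ubiquitin-like Isg15 was at 2.29, 2.64 and 3.05 in the tdTomato line, 2.33, 2.62 and 2.09 in the EYFP line and 6.82, 6.13 and 6.02 in the hippocampal line (-3.66 ± 0.28 for tdTomato and -3.98 ± 0.28 for EYFP, adjusted p = 9.5e-07 and 6.3e-07). Usp18, which removes Isg15 from its targets, was lower by at least 3.79. Ifit3 was at 7.43, 7.43 and 7.36 in the tdTomato line, 6.95, 6.93 and 7.12 in the EYFP line and 11.30, 10.64 and 10.50 in the hippocampal line (-3.40 ± 0.17 for tdTomato and -3.81 ± 0.17 for EYFP, adjusted p = 3.2e-08 and 1.7e-08), with 41.1% of its 75-base stretches shared with other transcripts. No traced library reached the lowest hippocampal library in any of them.

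Stat2 and Irf9, which carry the response, were lower by less than the median of the list, at -0.76 and -1.25. Irf7, which amplifies type I interferon, was at 4.94, 5.17 and 5.11 in the tdTomato line, 4.07, 3.98 and 3.43 in the EYFP line and 7.50, 6.89 and 6.63 in the hippocampal line, and here the tdTomato line exceeded the EYFP line by 1.25 (adjusted p = 0.00543). The sensors of viral RNA Ifih1 (-2.58) and Ddx58 (-1.37) were lower. The receptor chains Ifnar1 (-0.32) and Ifnar2 (-0.33) were slightly lower, and Jak1, Tyk2 and Irf3 did not meet the rule. Jak1 lay at 12.50 to 12.59 in the traced and 12.47 to 12.52 in the hippocampal libraries.

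The genes of antigen presentation on MHC class I followed the same direction. Of 20 past the filter, 17 were lower (85.00%, against 22.8% of all genes, medians -1.15 and -1.21), as were 14 of the 17 that reached 3.32 in every line, and 1, Erap1, was higher by 0.19, a call that several alternatives lost. H2-K1, a classical heavy chain, was at 7.83, 7.44 and 7.56 in the tdTomato line, 7.82, 7.64 and 7.69 in the EYFP line and 10.30, 9.86 and 9.91 in the hippocampal line (-2.41 ± 0.13 for tdTomato and -2.30 ± 0.13 for EYFP, adjusted p = 5.7e-08 and 1e-07). H2-Q4 (-2.87) and H2-T23 (-2.64) were lower by more, but the H2 genes are near copies of each other and the split of reads among them is uncertain. B2m, the light chain, was at 10.46, 10.56 and 10.60 in the tdTomato line, 10.63, 10.65 and 10.75 in the EYFP line and 12.00, 11.64 and 11.58 in the hippocampal line (-1.20 ± 0.09 for tdTomato and -1.06 ± 0.09 for EYFP, adjusted p = 1e-06 and 3.4e-06). The peptide transporter Tap1 (-1.40) and the class I transactivator Nlrc5 (-2.06) were lower, and the chaperone Canx did not meet the rule.

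Replicate 1 of the hippocampal line stood above its other replicates in these genes. It was the highest of the 3 in 38 of 39 interferon-stimulated genes (97.44%), by a median of 0.46 over the mean of the other 2, and in 20 of 20 antigen presentation genes (median 0.26), whereas it was the highest in 42.09% of all genes tested. It was also the highest in 11 of 13 pan-reactive genes (0.45) and 21 of 22 genes of cholesterol synthesis (0.31). Its part in the results was not tested further than by leaving it out. Without it, 30 of the interferon-stimulated genes, 13 of the antigen presentation genes and 6 of the A1 genes were lower in both traced lines. Of 8 markers of microglia and macrophages in the table, Aif1, Ptprc, Csf1r and Itgam lay under 3.32 in all 9 libraries. P2ry12 lay at 1.82 to 2.70 in the traced lines and at 3.24 to 3.57 in the hippocampal line, and did not pass the filter. The log2 of the summed level of all 8 was 9.50 to 9.68 in the tdTomato, 9.50 to 9.73 in the EYFP and 9.63 to 9.71 in the hippocampal line. Of the 3 past the filter, Tmem119 was higher in the traced lines (nearer difference 1.84) and none was lower. Of the 2 that reached 3.32 in every line none was higher or lower, so Tmem119 passed the filter through the traced lines. Over all genes 19.4% were higher, and the filter of 100 left none of the 3 higher.

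Counts of complement genes, interleukins and chemokines are set against 22.8% lower and 19.4% higher over all genes. Complement components and regulators were lower in 6 and higher in 1 of 15, and the lower ones included C4b (-2.03) and Cd59a (-2.35). Interleukins and their receptors were lower in 10 and higher in 2 of 20 (1 higher without EYFP replicate 2). Chemokines and their receptors were lower in 5 and higher in 2 of 13, with 1 higher without tdTomato replicate 3 and 2 lower under the filter of 100. Cxcl14 was lower (-1.74) and the membrane-bound chemokine Cx3cl1 was higher (1.70).

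**Figure D3:**
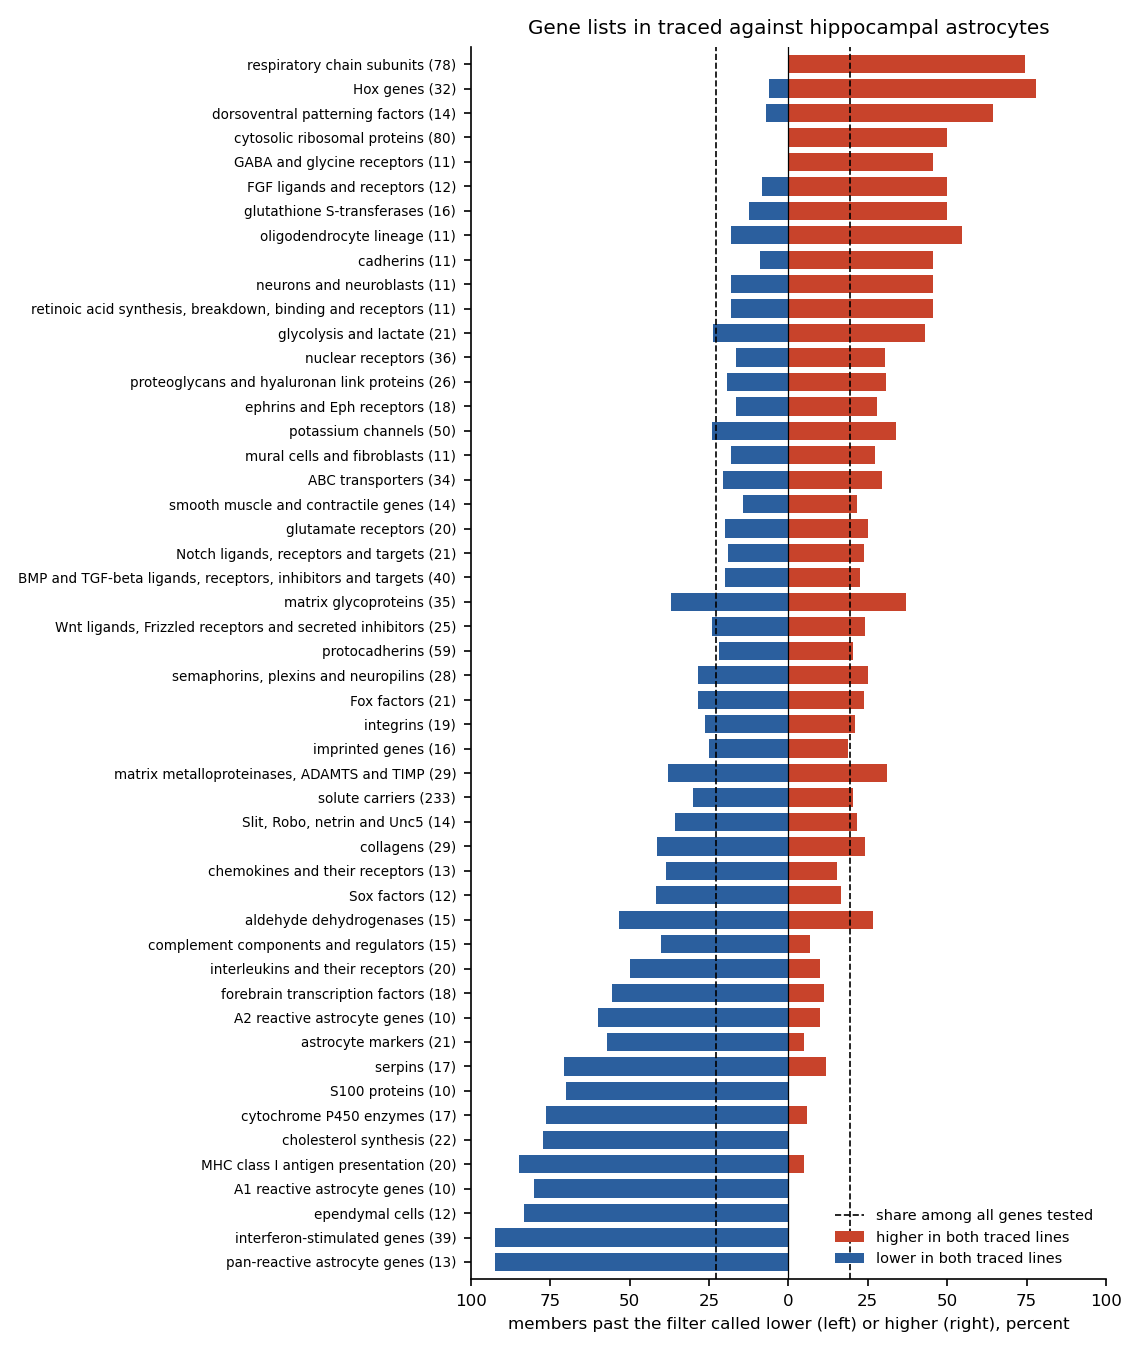
Percent of the members past the filter that were lower (bars to the left) or higher (bars to the right) in both traced lines, for lists with at least 10 such members. Dashed lines mark the share of all 15025 genes, 22.8% lower and 19.4% higher. Interferon-stimulated and pan-reactive genes reached 92.31% lower, Hox genes 78.12% higher and respiratory chain subunits 74.36% higher.

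The intermediate filaments and the extracellular matrix also differed. Of 8 intermediate filament genes past the filter, 5 were lower and 2 higher, against 22.8% and 19.4% of all genes, and of the 6 that reached 3.32 in every line 5 were lower and none higher. The 2 higher ones became 1 without EYFP replicate 2 and none under the filter of 100. Nestin (Nes) was at 11.08, 11.19 and 11.01 in the tdTomato line, 11.07, 10.77 and 10.74 in the EYFP line and 13.80, 13.43 and 13.70 in the hippocampal line (-2.55 ± 0.11 for tdTomato and -2.79 ± 0.11 for EYFP, adjusted p = 8.9e-09 and 5.8e-09), synemin (Synm) was lower by at least 1.83 and vimentin by 1.40. Collagens were lower in 12 of 29 (41.38%) and higher in 7. Col6a1 was at 7.67, 7.41 and 7.31 in the tdTomato line, 8.41, 8.07 and 8.02 in the EYFP line and 13.21, 11.58 and 11.82 in the hippocampal line (-4.74 ± 0.33 for tdTomato and -4.03 ± 0.33 for EYFP, adjusted p = 4.3e-07 and 1.9e-06), and its partner Col6a2 (-3.48) and the basement membrane chain Col4a6 (-3.76) went with it. Higher collagens included Col23a1 (1.67) and Col12a1 (1.46). Matrix glycoproteins were split evenly, 13 higher and 13 lower of 35. Tenascin C (Tnc) was at 13.59, 13.68 and 13.56 in the tdTomato line, 12.48, 12.76 and 12.25 in the EYFP line and 11.25, 11.01 and 11.29 in the hippocampal line (2.42 ± 0.11 for tdTomato and 1.31 ± 0.11 for EYFP, adjusted p = 2.3e-08 and 2.9e-06). Fibulin 2 (Fbln2, 2.37) and F-spondin (Spon1, 1.80) were higher, while tenascin X (Tnxb, -2.82) and matrilin 2 (Matn2, -2.30) were lower. Serpins were lower in 12 of 17 and higher in 2, and of the 13 that reached 3.32 in every line 8 were lower, as many as under the filter of 100. S100 calcium-binding proteins were lower in 7 of 10 and higher in none, and 6 of the 9 that reached 3.32 in every line were lower. Cadherins were higher in 5 of 11 and lower in 1.

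Metabolic families differed in size and direction. Of 78 subunits of the respiratory chain, 58 were higher in both traced lines (74.36%, against 19.4% of all genes) and none lower, but only 2 by at least 1. The medians were 0.37 for the tdTomato and 0.29 for the EYFP line. Cox8b, a subunit of cytochrome c oxidase best known from heart and muscle, had the largest difference, at 6.53, 6.53 and 6.90 in the tdTomato line, 6.52, 6.69 and 6.93 in the EYFP line and 3.45, 3.95 and 3.35 in the hippocampal line (3.07 ± 0.19 for tdTomato and 3.13 ± 0.19 for EYFP, adjusted p = 1.9e-07 and 2.1e-07). Cytosolic ribosomal proteins were higher in 40 of 80 and lower in none, a count that ran from 28 to 52 over the alternatives and from 27 to 47 with 1 library left out. Cholesterol synthesis went the other way, with 17 of 22 lower (77.27%) and none higher, and medians of -0.90 and -0.48. Hsd17b7 was at 9.17, 9.17 and 9.07 in the tdTomato line, 9.42, 9.43 and 9.39 in the EYFP line and 11.84, 11.38 and 11.25 in the hippocampal line (-2.35 ± 0.12 for tdTomato and -2.08 ± 0.12 for EYFP, adjusted p = 3.7e-08 and 1.2e-07), and squalene synthase (Fdft1, -1.25), Sc5d (-1.11) and squalene epoxidase (Sqle, -0.85) were lower. Cytochrome P450 enzymes were lower in 13 of 17 (76.47%), 6 of them by at least 1, with medians of -1.04 and -0.65. Glutathione S-transferases were higher in 8 of 16, with Gstt3 (1.22) and Gstm1 (0.80), and lower in 2, and under the filter of 100 the higher ones were 5. Aldehyde dehydrogenases were lower in 8 of 15 (22.8% of all genes) and higher in 4 (19.4%), but lower in 5 without hippocampal replicate 1. All 3 metallothioneins were lower.

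Receptors and signalling families are set here against 19.4% higher and 22.8% lower over all genes. GABA and glycine receptor subunits were higher in 5 of 11 and lower in none, led by Gabra2 (2.34) and Gabra5 (1.72), and under the filter of 100 the higher ones were 3. FGF ligands and receptors were higher in 6 of 12, including Fgf1 (1.49), and lower in 1, Fgf2 (-1.47). Several lists lay close to the share of all genes, so that their counts say nothing of the list. These were the glutamate receptors (5 higher and 4 lower of 20), the Wnt genes (6 and 6 of 25), the semaphorins and their receptors (7 and 8 of 28) and the protocadherins (12 and 13 of 59). Ligands, receptors, inhibitors and targets of BMP and TGF-beta, the pathway that the treatment itself activates, were among them, with 9 higher and 8 lower of 40. Single members of these lists still differed. The feedback inhibitors Smad6 (0.92) and Smad7 (0.94) and the secreted Wnt inhibitor Wif1 (2.94) were higher, as was the glutamate receptor subunit Grin3a (1.57). The BMP antagonist Chrdl1 (-1.14) and the metabotropic receptor Grm5 (-1.69) were lower. Solute carriers were higher in 47 and lower in 70 of 233.

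Markers of other cell types differed between the lines in part, and are set against 19.4% higher and 22.8% lower over all genes. Of 11 genes of the oligodendrocyte lineage, 6 were higher and 2 lower (none lower without hippocampal replicate 2), and the log2 of the list's summed level was 15.08 to 15.30 in the traced and 14.37 to 14.55 in the hippocampal libraries. Sox10, Mog and Mag of this lineage lay under 3.32 in all 9 libraries and did not pass the filter. Myrf (2.12) and Olig1 were higher, while myelin basic protein (Mbp) was at 1.04, 1.03 and 1.04 in the tdTomato line, 1.30, 1.03 and 1.41 in the EYFP line and 4.31, 3.69 and 4.03 in the hippocampal line, a low value in every line. Ependymal genes, of interest because the traced cells were followed as ependymal cells, were lower in 10 of 12 and higher in none, with summed levels of 11.42 to 11.70 against 12.51 to 12.67. Foxj1, the master regulator of motile cilia, was at 11.32, 10.97 and 11.15 in the tdTomato line, 11.22, 11.06 and 11.19 in the EYFP line and 12.28, 12.12 and 12.20 in the hippocampal line (-1.05 ± 0.08 for tdTomato and -1.04 ± 0.08 for EYFP, adjusted p = 1e-06 and 1.4e-06), and Dnah9 (-1.36) and Cfap44 (-1.84) were also lower. Of the 9 ependymal genes that reached 3.32 in every line 7 were lower, and under the filter of 100 the list held 6 lower genes. Neuronal genes were higher in 5 and lower in 2 of 11, but higher in 2 without EYFP replicate 3 or with no filter on low values. Endothelial genes lay under 3.32 in every line for 8 of 9. Of 5 dendritic cell genes past the filter 2 were lower, and none under the filter of 100, and their summed level was 8.82 to 8.95 in all 9 libraries. The part of such cells in the results was not tested.

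The NSCs of the same lines show which differences were there before BMP4. The difference between origins, taken as the mean of the traced lines minus the hippocampal line, changed between NSCs and astrocytes in 7038 genes (46.8%, interaction contrast over all 18 libraries, for the genes past the filter in astrocytes). For Hox genes the median difference was 3.09 in NSCs and 3.62 in astrocytes, and 15 of 32 passed the interaction test, 14 of them with a larger difference in astrocytes. For Nkx6-1 the difference was 4.65 in NSCs. For interferon-stimulated genes the median was -0.10 in NSCs and -2.38 in astrocytes, and all 39 passed the interaction test with a more negative difference in astrocytes. Oasl2 had a difference of 0.11 in NSCs, where the means of Ifit1 were 3.38, 3.32 and 3.09 in the tdTomato, EYFP and hippocampal lines. Those Ifit1 means lie below about 5 and may stand for few or no reads. The filter was set on astrocytes only, so genes could be near the floor in NSCs. A small NSC difference then does not show equal expression before BMP4. For pan-reactive genes the medians were 0.11 and -1.98, with all 13 passing in the negative direction, and for the respiratory chain -0.08 and 0.34, with 69 of 78 passing, all in the positive direction. Cholesterol synthesis had a median of -0.04 in NSCs.

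**Figure D4:**
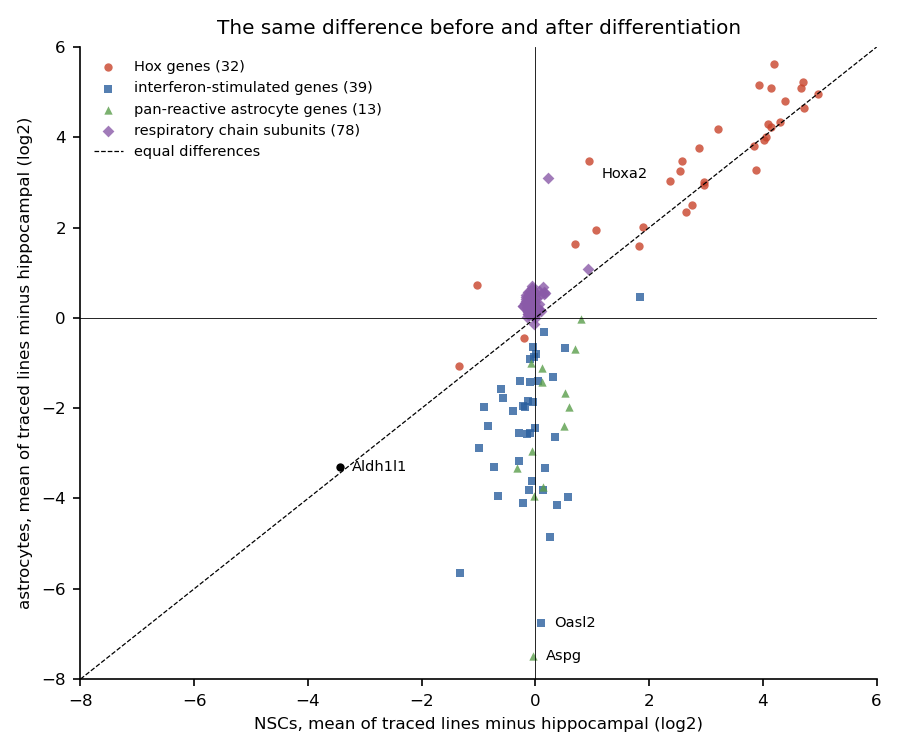
Log2 difference between the mean of the traced lines and the hippocampal line in NSCs (horizontal axis) and in astrocytes (vertical axis), 1 dot per gene, for 32 Hox genes, 39 interferon-stimulated genes, 13 pan-reactive genes and 78 respiratory chain subunits. The medians are 3.09 and 3.62 (NSCs and astrocytes) for the Hox genes, -0.10 and -2.38 for interferon-stimulated genes and 0.11 and -1.98 for pan-reactive genes, and single genes depart from them, such as Mx1 at -1.33 and Mx2 at 1.83 on the horizontal axis.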

How the data were processed

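RNA-seq values of 18 libraries were available, and the 9 astrocyte libraries were compared (3 lines, 3 replicates each). The deposited log2 values were made by the authors from reads aligned with STAR (2.5.2a) and counted per gene with RSEM on Ensembl release 89 of GRCm38, then normalized with DESeq2 (1.18.1). The transform is not named in the sources used here. The values have the form of a regularised log, so the depth of each library is unknown, no counting error can be given, and small values are pulled towards the mean of the gene. Labels and methods differ on the library kit and read length.

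Values were tested as deposited with limma (3.58.1, R 4.3.3) with a variance trend, in 1 fit of 3 groups over the 9 libraries. Both traced lines were contrasted with the hippocampal line, with Benjamini-Hochberg adjustment over the 15025 genes past the filter. The nearer difference of a gene is the smaller of the 2. All adjusted p-values come from these fits. The interaction with NSCs was fitted over all 18 libraries. Data were simulated for 15025 genes, of which 200 were changed alike in both traced lines. With the 2 contrasts of this fit, 63.5%, 80.8% and 100% of genes changed by 0.5, 1 and 2 were recovered. Far more genes passed in the real data, so these shares need not hold for them.

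The 74 gene lists, the members and the tests were chosen with earlier results of these data known. The named genes were the 12 protein-coding genes with the largest nearer difference in each direction, with a mean of at least 6.64 in the higher group and under 50% of 75-base stretches shared with other genes. To these came up to 3 members of each list in each direction, the astrocyte markers and the sex-linked genes. Further members of the lists, and the genes said to be picked later, were named after their values were seen. Some genes are not reported here. Lists were described by counts and medians, with no test of the list. Gene positions came from GENCODE M21 and promoters from RefSeq, both on GRCm38. The alternatives were other filters, pseudocounts, scalings and fits, the replicate number as a block, and fits without single libraries.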

Additional observations from a re-analysis of the deposited data

Results flagged for a closer look

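Of 23 genes with the largest differences between origins, 20 had a difference that changed between NSCs and astrocytes (limma, interaction contrast, adjusted p under 0.05), as did 46.8% of all genes tested. The 23 genes were chosen by their differences in astrocytes, which the interaction contrast uses again. A large interaction was thus favoured by the choice, and the shares are not comparable. The values below are the difference of traced minus hippocampal cells in astrocytes, less the same in NSCs. For most genes higher in the traced lines it was small: 0.53 for Hoxa9, 0.96 for Hoxc9, 1.23 for Hoxc8, 0.41 for Hoxa10 and for Hoxd8, 1.44 for Hoxb9, 0.27 for Nkx6-1 and 1.25 for Tceal3. Pi15 was the exception, at 4.15. For genes lower in the traced lines it was large: -8.35 for Serpina3m, -7.76 for Galnt9, -7.45 for Aspg, -6.45 for Ifi202b, -7.02 for Mrgprf and -7.05 for Cnmd. It was -6.86 for Oasl2, -6.62 for Ppl, -6.87 for Irs4, -6.05 for Crygs and -4.32 for Mx1.

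In 6 of the 23 genes the traced lines differed from each other (tdTomato minus EYFP, adjusted p under 0.05), as did 11.8% of all genes tested. The tdTomato line was higher by 1.34 for Hoxb9, 0.62 for Hoxc10, 0.89 for Nkx6-1, 0.66 for Hoxb8 and 1.33 for Tceal3. For Irs4 the value was -0.68.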

How the results depend on the processing

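The 24 leading genes passed in the same direction under every alternative that tested them; leaving out the X and Y chromosomes removed those on the X. Of 8485 pairs of a named gene and an alternative, 105 lost the call, 5 gained it and none changed sign. The 6344 genes became 6205 with no filter on low values (5633 of them shared), 5302 with a filter of 100 on the linear scale, 6396 with median centring and 5456 to 6160 with 1 library left out, the lowest without hippocampal replicate 1. The genes that differed by at least 1 fell to 769 with the filter of 100 (312 higher, 457 lower), which tests fewer genes. The 1771 genes that differed between the traced lines ran, with 1 library left out, from 1040 (without tdTomato replicate 2) to 1862 (without hippocampal replicate 1), with 1117 without EYFP replicate 3; the cause was not tested. The share of higher genes was 45.9%, and 52.1% or 52.7% after median centring or quantile normalization. Of 3256 combinations of a list, a count and an alternative, 181 moved by over 1.5 times.

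Same-numbered libraries of different lines correlated at 0.058 to 0.335 in their deviations from the group means (9 pairs) and other libraries at -0.371 to 0.116 (18 pairs). Not every pair passed 0.1, so the numbers were not taken as pairs, although in 16 of 18 cases (each of the 9 libraries against each other line) a library correlated best with its own number. With the replicate block 6880 genes differed (3154 higher, 3726 lower), 1355 by at least 1, and 2341 differed between the traced lines. Depth is unknown, so it cannot be said which weak genes went undetected.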

Other observations

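Of 491 processed pseudogenes tested, 57 were lower in both traced lines by at least 1 and 6 were higher, against 5.46% and 3.51% of all genes tested. Reads of such copies can come from their parent genes, and whether they did was not tested. Ribosomal proteins, which have many such copies, included Rpl29, at 12.21, 12.13 and 12.15 in the tdTomato line, 12.17, 12.03 and 12.13 in the EYFP line and 10.19, 10.22 and 10.25 in the hippocampal line. Of the 80 ribosomal protein genes, 4 shared at least 50% of their 75-base stretches with other genes.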
